A study of Mus musculus with 24 samples.

Results

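Wounds of diabetic mice that had been treated with a hydrogel were compared at day 14 and at day 7. The libraries compared are 6 of the 24 of the series, the 3 titled TEOA_day14 and the 3 titled TEOA_day7. The comparison was made across all genes. Both groups are wound tissue of diabetic mice under the treatment that the labels call Fmoc-KYF-AgNCs-3S1C-Hyd2 hydrogel, by the series title a peptide gel that carries clusters of silver and a hydrogenase for light-driven release of hydrogen. By the labels they differ in the day alone. The titles say TEOA and do not name the gel. The model of diabetes, the strain, sex and age of the mice, the place of the wound and the use of light in these animals are not given in the labels. Diabetic control wounds at day 14 and at day 7 (3 libraries each) serve to show where the change in hydrogel wounds differed from the change in wounds without the gel. They and the day 1 wounds of both arms also entered the fit. All 18 wound libraries together thus set the filter, the scaling and the spread behind each p-value. The labels do not say that replicates came from separate animals, so part of the distance between libraries may be technical. The p-values set the distance between the compared libraries against a spread estimated over all 18 wound libraries. As the biological coefficient of variation, that spread was 15% and 11.1% in hydrogel day 14 and day 7 wounds and 4.69% in control day 7 wounds. It was 44.1% to 55.6% in the day 1 and control day 14 wounds. A gene that did not pass need not scatter widely in the compared libraries.

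Closure of a skin wound passes from clot and inflammation, with neutrophils and then macrophages, through new epidermis, vessels and matrix to remodelling. Mouse skin lies on a thin sheet of striated muscle, and its hair follicles cycle between rest and growth. In the growth phase, called anagen, matrix cells at the base of the follicle divide and produce the inner root sheath and the hair shaft, each with keratins of its own, while melanocytes pass pigment to the shaft. Mitotic genes are switched on together late in the cell cycle, and many of their promoters hold the cell cycle homology region TTTGAA, read by the DREAM and MMB complexes, and the box CCAAT, read by NF-Y.

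The main pattern was a rise of hair follicle genes, of DNA replication and of mitosis at day 14, against a fall of vessel, skeletal muscle, macrophage, neutrophil and chemokine genes. Of 17592 genes tested, 2053 rose (11.7%) and 1689 fell (9.6%) in hydrogel wounds at day 14 against day 7, which together is 21.3%. The test was edgeR's quasi-likelihood F test on read counts, with Benjamini-Hochberg adjustment over all genes tested and a threshold of 0.05. "Rose" and "fell" name changes past that threshold. Levels are CPM, read counts scaled to library size after TMM normalization. Fold changes are day 14 over day 7 on the log2 scale, and ± beside one is its standard error. That error comes from the fit of all 18 wound libraries and is not the scatter of the compared libraries alone. The median log2 fold change over all genes was 0.011. It was 0.382 without TMM scaling, and changes are therefore given relative to the TMM baseline. Between them the levels of the 3 day 14 libraries and of the 3 day 7 libraries did not overlap in 12109 genes (68.8%, of which 34.8% were higher and 34% lower at day 14), so a lack of overlap is common here and is not used as support.

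Libraries held 20 M, 24.7 M and 22.2 M counts at day 14, against 14.3 M, 17.4 M and 15 M at day 7. TMM factors were 1.27 to 1.31 at day 14, against 0.972 to 1.03 at day 7. The transcript CT010467.1 took 4.06% of the counts of day 7 replicate 1, at most 0.485% in the other day 7 libraries and at most 0.233% at day 14; its removal left 3730 genes past the threshold. The skeletal muscle list took 2.59% to 4.52% of all counts at day 14, against 14.4% to 16% at day 7. In bulk tissue, fewer cells of a type and less RNA per cell cannot be told apart.

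Day 14 replicate 2 and day 7 replicate 1 lay between the other libraries of their own group. Day 14 replicate 2 did so, between replicates 1 and 3, in 77.7% of the 7492 genes that averaged 20 CPM or more, and in 630 of the 631 genes in which replicates 1 and 3 were at least 1.5-fold apart. Its levels were close to a weighted mean of 42.9% of replicate 1 and 57.1% of replicate 3, with a median squared deviation of 0.695 in units of counting variance, where counting noise alone gives 0.455. Day 7 replicate 1 lay between the other day 7 libraries in 184 of 192 such genes, near a mean of 46.9% of replicate 2 and 53.1% of replicate 3, with a median squared deviation of 0.98. In the other groups with more than 10 such genes, the share of them in which a library lay between the others was at most 73.1%, with a median squared deviation of 20.9 in that library; the control day 7 libraries had only 6 to 8 such genes, and their median squared deviations, 0.625 to 0.693, were as low as that of day 14 replicate 2. Why the libraries stand like this was not tested, and if they are not independent the p-values are too small. With both libraries left out, 2 against 2 libraries remained and 236 genes passed, 168 higher and 68 lower, all 236 among those called with every library. With the day 7 libraries of each arm summed to 1 library, 0 genes passed in edgeR, with 2419 at an unadjusted p below 0.05. Each summed library then had no spread of its own and was assumed to vary like the other groups, whose biological coefficient of variation was 15% in hydrogel day 14 and 44.1% to 55.6% in the day 1 and control day 14 wounds, against 11.1% and 4.69% in the hydrogel and control day 7 wounds themselves. With every library, 6403 genes (36.4%) stood at an unadjusted p below 0.05, DESeq2 called 5029 and limma-voom called 13128. Counts without the 2 libraries stand beside those of the main gene groups below.

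**Figure D1:**
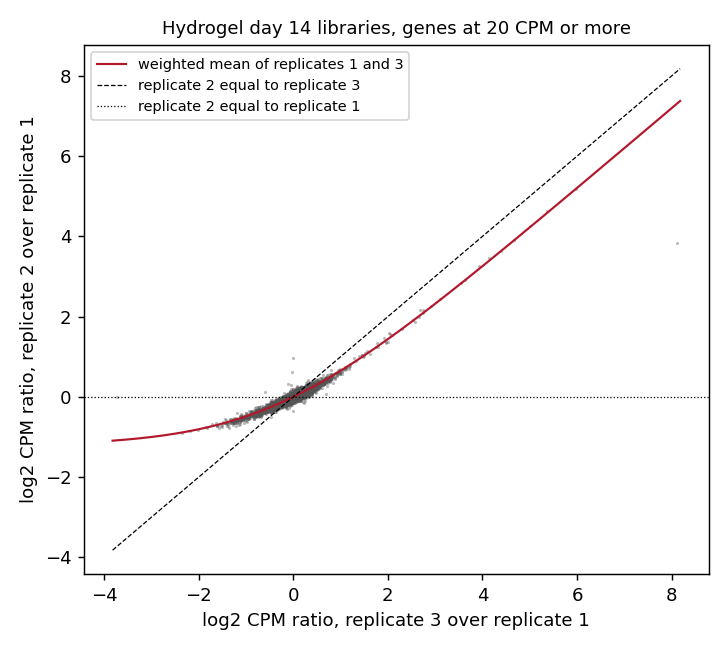
Each point is 1 gene that averaged 20 CPM or more over the hydrogel day 14 libraries; the x axis is the log2 CPM ratio of replicate 3 over replicate 1 and the y axis that of replicate 2 over replicate 1. Points follow the curve of a weighted mean of replicates 1 and 3 (42.9% and 57.1%), between the line where replicate 2 would equal replicate 3 and the line where it would equal replicate 1.

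Among 51 gene lists, those in which the members that passed in 1 direction were at least as many as all the others were hair shaft and root sheath, hair follicle regulators, melanocyte, DNA replication and mitosis on the higher side, and endothelial, lymphatic endothelial, skeletal muscle, muscle regeneration, alternative macrophage activation, chemokines, neutrophil, glycolysis and respiratory chain on the lower side. The background to these counts is 11.7% of genes higher and 9.6% lower.

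**Figure D2:**
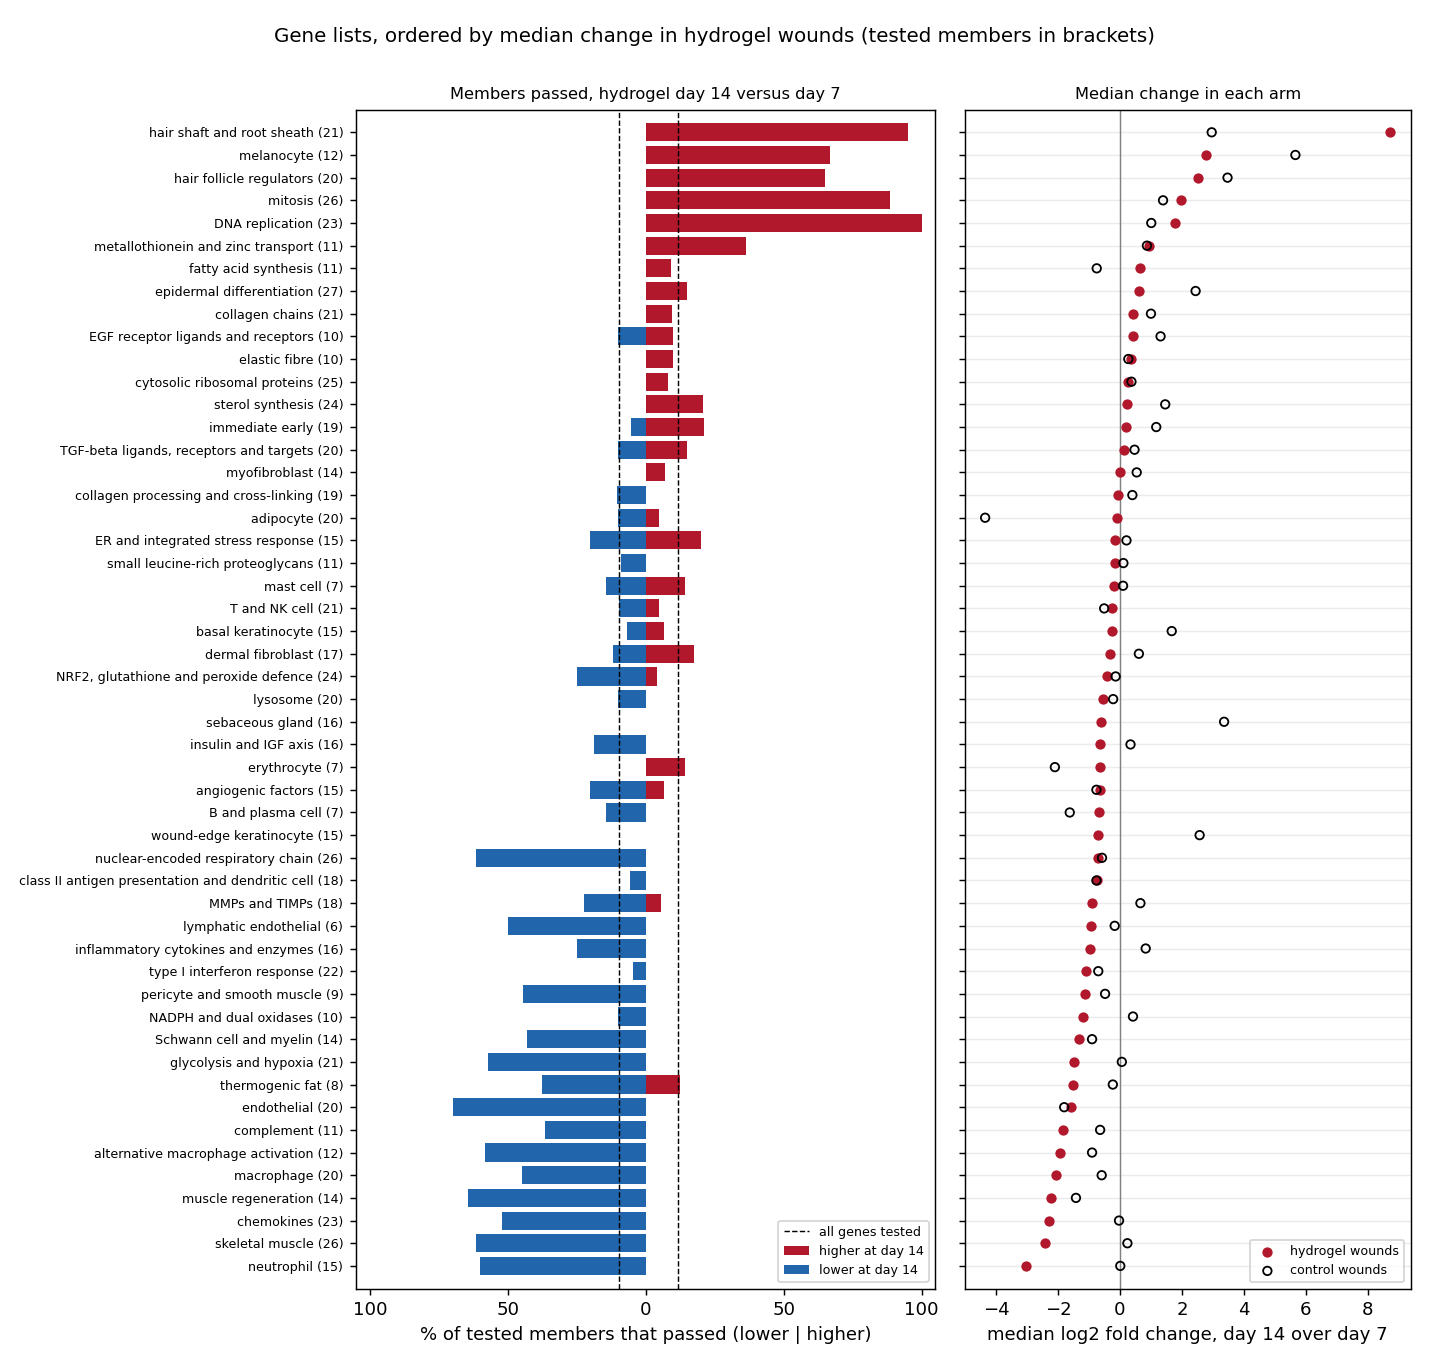
The left panel gives for each of 51 gene lists the percentage of its tested members that passed in hydrogel wounds at day 14 against day 7, higher to the right and lower to the left, with dashed lines at the shares over all genes (11.7% and 9.6%). The right panel gives the median log2 fold change of the members, day 14 over day 7, as filled points for hydrogel wounds and open points for control wounds; hair lists stand at the top and neutrophil, muscle and chemokine lists at the bottom.

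Promoters of 6 genes show the sequences in front of members that moved together. The first 3 are the mitosis genes with the lowest p among those that rose and hold both motifs, and the other 3 are the hair genes with the lowest p that have a window. Each is the 300 bases from 250 before to 50 after the gene's start in RefSeq (GRCm38.p6), read 5′ to 3′ on the gene's strand, with capitals on TTTGAA or TTCAAA and on CCAAT or ATTGG.
Plk1 (polo-like kinase, mitotic entry; chr7:122159185-122159484, + strand): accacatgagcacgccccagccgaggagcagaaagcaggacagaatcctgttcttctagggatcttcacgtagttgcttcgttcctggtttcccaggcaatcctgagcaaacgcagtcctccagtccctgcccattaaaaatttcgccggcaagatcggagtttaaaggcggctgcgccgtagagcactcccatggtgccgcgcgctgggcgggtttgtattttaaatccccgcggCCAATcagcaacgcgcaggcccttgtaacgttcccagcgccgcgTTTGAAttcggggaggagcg
Cdc20 (activator of the anaphase-promoting complex; chr4:118437294-118437593, - strand): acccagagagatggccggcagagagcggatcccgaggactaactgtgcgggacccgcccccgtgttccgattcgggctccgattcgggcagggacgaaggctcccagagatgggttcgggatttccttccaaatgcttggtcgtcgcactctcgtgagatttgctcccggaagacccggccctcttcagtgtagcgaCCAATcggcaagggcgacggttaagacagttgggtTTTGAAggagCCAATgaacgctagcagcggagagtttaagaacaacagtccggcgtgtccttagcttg
Aurka (Aurora kinase of the spindle pole; chr2:172370521-172370820, - strand): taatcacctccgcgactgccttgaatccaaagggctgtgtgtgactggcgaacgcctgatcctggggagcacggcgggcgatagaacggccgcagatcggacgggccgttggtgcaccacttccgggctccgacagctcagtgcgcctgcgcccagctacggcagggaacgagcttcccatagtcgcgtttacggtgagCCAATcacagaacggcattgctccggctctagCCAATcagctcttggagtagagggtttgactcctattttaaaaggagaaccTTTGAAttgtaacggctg
Krt31 (hair shaft cortex keratin; chr11:100050502-100050801, - strand): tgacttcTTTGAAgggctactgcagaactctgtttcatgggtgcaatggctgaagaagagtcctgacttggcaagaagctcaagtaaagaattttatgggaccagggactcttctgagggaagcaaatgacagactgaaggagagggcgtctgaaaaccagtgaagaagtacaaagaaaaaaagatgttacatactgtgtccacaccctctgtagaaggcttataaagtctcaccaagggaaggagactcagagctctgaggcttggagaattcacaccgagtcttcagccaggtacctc
Krt25 (inner root sheath keratin; chr11:99322902-99323201, - strand): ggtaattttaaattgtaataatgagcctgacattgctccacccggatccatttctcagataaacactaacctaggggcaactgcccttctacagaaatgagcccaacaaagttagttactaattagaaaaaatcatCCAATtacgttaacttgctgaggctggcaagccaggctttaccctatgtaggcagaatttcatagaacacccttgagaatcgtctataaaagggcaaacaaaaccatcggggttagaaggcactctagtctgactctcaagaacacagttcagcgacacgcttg
Krt71 (inner root sheath keratin; chr15:101743048-101743347, - strand): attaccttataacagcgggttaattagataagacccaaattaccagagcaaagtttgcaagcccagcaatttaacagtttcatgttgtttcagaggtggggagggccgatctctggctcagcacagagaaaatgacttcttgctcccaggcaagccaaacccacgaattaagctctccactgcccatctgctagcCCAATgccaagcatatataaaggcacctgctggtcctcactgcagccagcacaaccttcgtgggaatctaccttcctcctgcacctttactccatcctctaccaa

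TTTGAA, searched on both strands, was in the window of 17 of the 22 mitosis genes that had one (77.3%), in 2 of 17 DNA replication genes (11.8%) and in 20.2% of all 27025 genes with a window. CCAAT, searched on both strands and independently of TTTGAA, was in 18 of 22 mitosis genes (81.8%), in 9 of 17 replication genes (52.9%), in 10 of 16 hair shaft and root sheath genes (62.5%) and in 41.1% of all genes with a window. Among the other lists that moved mostly 1 way, the share with CCAAT ran from 20% for chemokines to 62.5% for alternative macrophage activation. In the Plk1, Cdc20 and Aurka windows the matches begin between -53 and 32 bases from the start. These are matches of letters, and no binding was measured.

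Hair shaft and root sheath genes had the highest median change of any list. At least 1 count was found at day 14 in 48 of the 50 Krtap genes in the files (keratin-associated proteins, which cross-link hair keratins), against 9 of 50 at day 7. Summed over these genes, replicates 1, 2 and 3 held 254, 5411 and 8122 counts at day 14, against 4, 8 and 8 at day 7. Over all genes, 23729 to 24522 had a count in each day 14 library, against 21914 to 22534 in each day 7 library. Of 26 listed hair genes, 21 had enough counts to be tested, 20 of these rose and none fell, with a median log2 fold change of 8.72, or 8.31 with the 4 genes at 0 counts at day 7 set to their lower bound. Without the 2 libraries between the others 7 rose and the median was 9.10, and leaving out any 1 library left 20. Since most of these genes had next to no counts at day 7, they passed the filter through day 14, and the count describes the list and is not support for it. Of the 5 not tested, Krt84 had 13 counts at day 14 and 0 at day 7, and Krt85, Krtap3-1, Krtap4-1 and Krtap11-1 were not analysed here.

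Most inner root sheath keratins were abundant and of similar level in the day 14 libraries. Krt25 stood at 824, 1175 and 1436 CPM at day 14, against 1.01, 0.224 and 1.0 CPM at day 7. All day 14 libraries were far above all day 7 libraries, and the log2 fold change was 10.61 ± 1.63 (adjusted p = 0.00117). Krt71, its type II partner in the inner root sheath, stood at 588, 901 and 1110 CPM at day 14, against 0.790, 0.672 and 0.535 CPM at day 7, and it rose by 10.33 ± 1.62 (adjusted p = 0.00132). Krt28 stood at 469, 473 and 484 CPM at day 14, against 3.66, 2.58 and 4.74 CPM at day 7 and was the most even of the list, with a ratio of 1.03 between the highest and the lowest day 14 library. Krt72, another keratin of the sheath, had no counts at day 7 and 5.17, 16.5 and 23.1 CPM at day 14, so it was at least 239.8-fold higher, with the floor set at 3 counts for the day 7 group. Krt75, the companion layer keratin, had the highest level of the list at day 7 and was the 1 tested member that did not pass, at 142, 149 and 152 CPM at day 14, against 50.9, 53.5 and 44.4 CPM at day 7. The groups did not overlap, and its log2 fold change was 1.57 ± 1.22 (adjusted p = 0.374).

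Shaft genes rose as well, but unevenly, and replicate 1 was the lowest day 14 library in all 21 genes of the list. S100a3, a calcium-binding protein of the hair cuticle, stood at 101, 301 and 417 CPM at day 14, against 0.359, 0.224 and 0.735 CPM at day 7. It rose by 9.28 ± 1.13 (adjusted p = 0.000377, and 0.0253 without the 2 libraries), with replicate 1 4.12-fold below replicate 3. Krt31, of the shaft cortex, stood at 12.9, 142 and 229 CPM at day 14, against 0.0718, 0.392 and 0.401 CPM at day 7 (log2 fold change 8.72 ± 1.24, adjusted p = 0.00081), so that replicate 1 was 17.7-fold below replicate 3 and still above every day 7 library. Krtap8-1 was at 1.86, 46.1 and 76.7 CPM at day 14 and at 0 in every day 7 library, at least 676-fold higher. Krtap7-1 was likewise at 1.5, 54.5 and 94.7 CPM at day 14, against 0 in every day 7 library, at least 817-fold higher. Krt87, a hair keratin of the type II cluster, had 15.3, 115 and 189 CPM at day 14, with 2 counts in all at day 7, a ratio of 2580 (95% counting interval 713 to 21300). The ratio of the highest to the lowest day 14 library was 1.03 to 1.89 for Krt28, Krt75, Krt73, Krt27, Krt25 and Krt71, and 14.4 to 41.4 for Krt82, Krt31, Krt34, Krt83, Krt81, Krt33a, Krt33b and Krtap8-1, with the other 7 genes of the list between them, at 2.17 to 4.47. The type I keratins named here lie on chromosome 11 and the type II keratins on chromosome 15. Hair keratins and keratin-associated proteins are close copies of each other, and featureCounts was run, per the file headers, without its option to count reads that align to several places, so single members are uncertain.

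**Figure D3:**
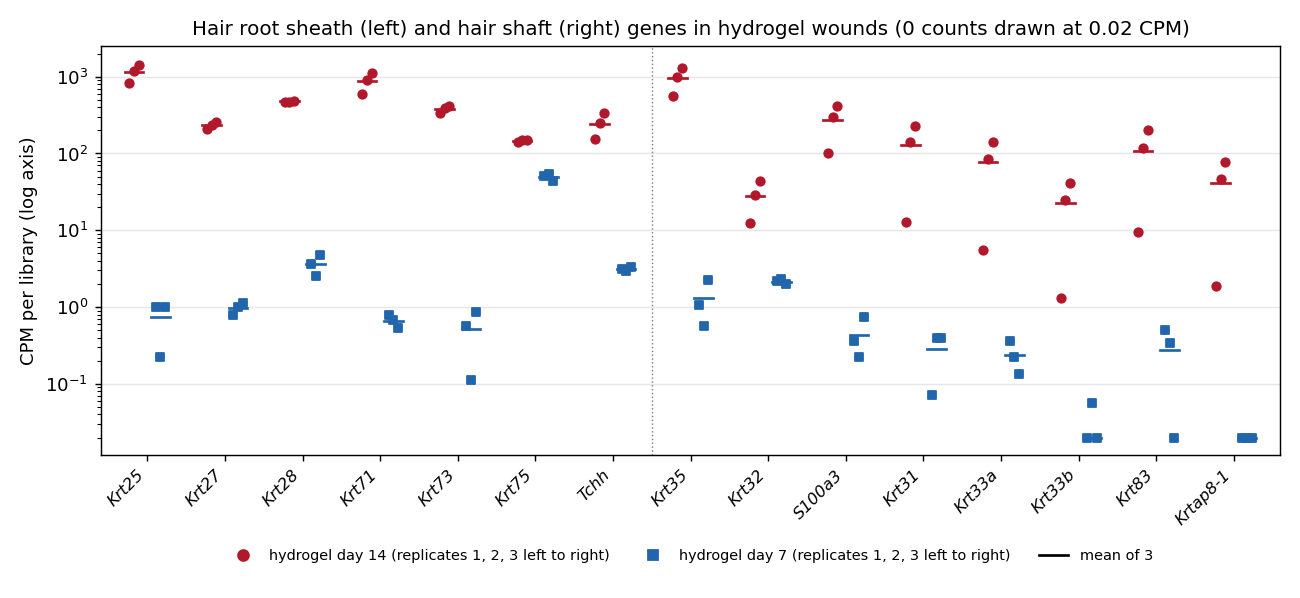
CPM per library (log axis) of 15 hair genes in hydrogel wounds at day 14 (red circles) and at day 7 (blue squares), with bars at the mean of 3; root sheath genes are left of the dotted line and shaft genes right of it. Day 14 libraries lie above day 7 libraries in every gene drawn, and day 14 replicate 1 (the leftmost red point) lies well below the others in Krt31, Krt33a, Krt33b, Krt83 and Krtap8-1.

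Other genes named by size were also near absent at day 7. Gprc5d, an orphan receptor found in hard keratinized tissue, was at 4.30, 41.1 and 65.4 CPM at day 14, against 0 in every day 7 library, at least 599-fold higher. Tgm6, a transglutaminase, was at 10.1, 38.2 and 58.3 CPM at day 14 and at 0 at day 7, at least 572-fold higher. Krt86, a type II shaft keratin, was at 17.7, 35.6 and 49.7 CPM at day 14 and at 0 at day 7, at least 546-fold higher. Gabrp, a GABA receptor subunit, was at 3.83, 6.86 and 8.80 CPM at day 14, with 0 at day 7, at least 103-fold higher. All of these passed, with adjusted p of 0.000559, 0.0169, 0.000632 and 0.00329 in that order. Without the libraries that lie between the others it was 0.0253, 0.116, 0.0258 and 0.0544. These genes had 0 counts at day 7 and were named by the size of the change, so these p-values are not support for it. Vsig8, found in hair cuticle, stood at 17.5, 78.7 and 112 CPM at day 14, against 0.215, 0.280 and 0.134 CPM at day 7 and rose by 8.31 ± 0.87 (adjusted p = 0.000147), again with replicate 1 lowest at day 14.

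Genes that direct follicle growth rose as well. Of 20 hair follicle regulators, all tested, 13 rose and none fell, with a median log2 fold change of 2.53 (3 without the 2 libraries, 6 to 13 when any 1 library was left out). Wnt10b, a Wnt ligand of early anagen, stood at 86.2, 93.5 and 95.5 CPM at day 14, against 3.88, 5.54 and 4.14 CPM at day 7. It rose by 4.34 ± 0.52 (adjusted p = 0.000359), and the day 14 libraries were within a narrow range. Msx1, a homeobox factor of the hair matrix, stood at 77, 85.7 and 90.9 CPM at day 14, against 2.66, 2.07 and 2.61 CPM at day 7 and rose by 5.11 ± 0.61 (adjusted p = 0.000359). Its relative Msx2 stood at 43.3, 60.4 and 70.3 CPM at day 14, against 0.718, 0.784 and 0.401 CPM at day 7 (log2 fold change 6.49 ± 1.11, adjusted p = 0.00209). Wnt5a, a ligand of non-canonical Wnt signalling, stood at 118, 126 and 132 CPM at day 14, against 7.39, 7.45 and 6.95 CPM at day 7 (log2 fold change 4.11 ± 0.67, adjusted p = 0.00161). In none of these did the groups overlap. Dlx3 and Hoxc13, homeobox factors of the shaft, Foxn1, the gene mutated in nude mice, Lef1, the nuclear partner of beta-catenin, and Shh, the signal of the matrix, also rose, by 6.51, 4.17, 3.64, 4.20 and 5.29 on the log2 scale. The 7 that did not pass included Sox9 and Lhx2 of the outer root sheath and its stem cells, at -0.49 and 1.28, and Fgf5, which ends anagen, at -0.03.

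Melanocyte genes were higher too. Of 12 tested, 8 rose and none fell, with a median of 2.76; none passed without the 2 libraries, while the median was 2.78. Mlana, a melanosome protein, stood at 65.2, 106 and 129.9 CPM at day 14, against 6.96, 8.23 and 7.62 CPM at day 7. All day 14 libraries were above all day 7 libraries, and it rose by 3.72 ± 0.70 (adjusted p = 0.00322). Slc24a5, an ion exchanger of the melanosome, stood at 28.7, 28.5 and 30.4 CPM at day 14, against 1.80, 1.34 and 1.54 CPM at day 7 and rose by 4.22 ± 0.82 (adjusted p = 0.00388). Gpr143, a melanosome receptor, rose by 3.75 ± 0.75 (adjusted p = 0.00444) and Kit, the receptor of stem cell factor that mast cells also carry, by 2.37 ± 0.51 (adjusted p = 0.00647). Tyr, the tyrosinase that starts pigment synthesis, stood at 88.2, 89.5 and 93.5 CPM at day 14, against 11.3, 12 and 9.15 CPM at day 7 and rose by 3.06 ± 0.92 (adjusted p = 0.0318). The enzymes Tyrp1 and Dct and the scaffold protein Pmel did not pass, at 2.46, 2.13 and 2.21, and Sox10, shared with Schwann cells, was at 0.15.

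Zinc handling changed in 4 of 11 tested members, all higher, with no fall. Mt4, the metallothionein of stratified epithelium, stood at 75, 189 and 257 CPM at day 14, against 0.861, 0.616 and 1.60 CPM at day 7. It rose by 7.40 ± 0.74 (adjusted p = 0.000116), and day 14 replicate 1 was again the lowest of its group. Slc39a6 and Slc39a10, zinc importers, rose by 2.02 ± 0.20 (adjusted p = 0.000116) and 3.25 ± 0.60 (adjusted p = 0.00308), and Slc30a1, the zinc exporter of the plasma membrane, by 2.82 ± 0.51 (adjusted p = 0.00273). Mt1, the metal-induced metallothionein, stood at 626, 709 and 739.7 CPM at day 14, against 668, 379 and 1109 CPM at day 7, and the groups overlapped (log2 fold change -0.06 ± 0.39, adjusted p = 0.934). Without the 2 libraries 2 members passed.

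DNA replication genes rose as a whole list. All 23 members passed, with a median log2 fold change of 1.78, 5 passed without the 2 libraries, and 14 to 23 passed when any 1 library was left out. Mcm2, a subunit of the replicative helicase, stood at 113, 114 and 115 CPM at day 14, against 27.2, 27.9 and 31.6 CPM at day 7. The day 14 libraries were nearly equal to each other and all above the day 7 libraries, and the log2 fold change was 1.98 ± 0.32 (adjusted p = 0.00138). Mcm7, of the same helicase, stood at 164, 169.9 and 179 CPM at day 14, against 47.2, 45.4 and 49.8 CPM at day 7 (log2 fold change 1.85 ± 0.27, adjusted p = 0.000926). Pold1, the catalytic subunit of DNA polymerase delta, stood at 65.2, 67.2 and 65.9 CPM at day 14, against 17.7, 17.3 and 22.5 CPM at day 7 (log2 fold change 1.79 ± 0.25, adjusted p = 0.00081). Mcm4 rose by 1.78 ± 0.29 (adjusted p = 0.00149). The smallest rise of the list was 1.27 for Ccne2, a cyclin of S phase entry, and the largest 3.03 for Uhrf1, which keeps DNA methylation at replication forks.

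Mitosis genes followed, with 23 of 26 higher, none lower and a median of 1.98. None passed without the 2 libraries, with the same median of 1.98, and 11 to 26 passed when any 1 library was left out. Plk1, whose promoter is printed above, stood at 68.4, 76.5 and 79.4 CPM at day 14, against 16.7, 14.7 and 14.8 CPM at day 7. It rose by 2.28 ± 0.46 (adjusted p = 0.0049, and 0.0677 without the 2 libraries). Aurkb, the kinase of the chromosomal passenger complex, stood at 56.7, 61.3 and 67.9 CPM at day 14, against 13.9, 12.4 and 12.4 CPM at day 7 (log2 fold change 2.26 ± 0.47, adjusted p = 0.00534). Prc1, which bundles microtubules of the central spindle, stood at 33.3, 38.7 and 41.9 CPM at day 14, against 9.19, 9.30 and 10.6 CPM at day 7 (log2 fold change 1.97 ± 0.39, adjusted p = 0.00435). Mki67, the proliferation marker, stood at 374, 458 and 554 CPM at day 14, against 102, 118 and 88.1 CPM at day 7 (log2 fold change 2.17 ± 0.61, adjusted p = 0.0211), and the groups did not overlap. Kif20a, a kinesin of cytokinesis, rose by 1.98 ± 0.44 (adjusted p = 0.00785). Cenpa, Ttk and Anln did not pass, at 1.26, 1.12 and 0.91. Day 14 replicate 1 was the lowest day 14 library in all 26 mitosis genes and in 22 of 23 replication genes, as it was in the hair genes, and the part of hair matrix cells in the mitotic genes was not tested.

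Ranked by adjusted p at 50 CPM or more, the first gene was Lrrc15, a membrane protein of activated fibroblasts. It stood at 102, 82.7 and 67.9 CPM at day 14, against 4.09, 3.19 and 6.41 CPM at day 7. Every day 14 library was more than 10-fold above every day 7 library, and it rose by 4.20 ± 0.32 (adjusted p = 1.2e-05, and 0.00295 without the 2 libraries). Ttyh3, a membrane protein of the tweety family, stood at 143, 150.4 and 160.3 CPM at day 14, against 23.1, 25 and 25.5 CPM at day 7 (log2 fold change 2.62 ± 0.25, adjusted p = 8.63e-05). Ammecr1 stood at 51.9, 68.2 and 83.3 CPM at day 14, against 10.2, 12.5 and 12.1 CPM at day 7 (log2 fold change 2.55 ± 0.24, adjusted p = 8.63e-05). Fads2, the delta-6 fatty acid desaturase, stood at 47.5, 65.5 and 72.1 CPM at day 14, against 13, 9.86 and 13.8 CPM at day 7 (log2 fold change 2.34 ± 0.27, adjusted p = 0.000359). Cbx3, a heterochromatin protein, Rbm15b, an RNA-binding protein, and Nckap5l rose by 1.54 ± 0.18, 1.29 ± 0.15 and 2.44 ± 0.29, each with an adjusted p of 0.000359.

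Few genes of the epidermis between follicles passed, and none of the basal or differentiation lists did without the 2 libraries. Krt14, the keratin of the basal layer, stood at 2161, 1817 and 1590 CPM at day 14, against 3047, 2997 and 3101 CPM at day 7. Day 14 libraries were all lower, but the gene did not pass (log2 fold change -0.72 ± 0.58, adjusted p = 0.394). Krt1, of the layer above, and Krt6a, of the wound edge, did not pass either (-0.69 ± 0.70, adjusted p = 0.505, and -0.44 ± 0.65, adjusted p = 0.659). Among 15 basal keratinocyte genes, 1 rose, which was Cdh3, the P-cadherin that hair matrix also carries (2.64 ± 0.75, adjusted p = 0.0226), and 1 fell, which was Itga6, an integrin of the hemidesmosome (-0.76 ± 0.25, adjusted p = 0.0385). Of 27 epidermal differentiation genes 4 rose and none fell: Dsc1, a desmosomal cadherin (2.05 ± 0.44), Krt2 (4.31 ± 0.99), Tgm1 (2.26 ± 0.54) and Tgm3 (1.60 ± 0.42), the last 2 being transglutaminases that cross-link cornified cells and shafts, with adjusted p from 0.00637 to 0.0156. None of the 15 tested wound-edge and none of the 16 sebaceous gland genes passed, with medians of -0.70 and -0.61.

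Matrix genes moved in few members. Of 21 collagen chains 2 rose and none fell, which is near the background of 11.7%, and 1 rose without the 2 libraries. Col1a1, the main chain of type I collagen, stood at 1085, 883 and 731 CPM at day 14, against 348, 333 and 397 CPM at day 7. It rose by 1.32 ± 0.38 (adjusted p = 0.0225, and 0.158 without the 2 libraries). Col11a1, a minor fibrillar chain, stood at 20.4, 16 and 17.8 CPM at day 14, against 1.87, 1.57 and 2.14 CPM at day 7 (log2 fold change 3.28 ± 0.53, adjusted p = 0.00152). Col3a1 stood at 587, 524 and 479.7 CPM at day 14, against 557, 510.0 and 581 CPM at day 7, with overlapping groups (log2 fold change -0.05 ± 0.63, adjusted p = 0.962), and Dcn, the proteoglycan decorin, did not pass (log2 fold change 0.51 ± 0.50, adjusted p = 0.483). Lox, the lysyl oxidase that cross-links collagen, stood at 15.4, 12.9 and 12.4 CPM at day 14, against 36.9, 31.6 and 37.2 CPM at day 7; the groups did not overlap, but the test was not passed (log2 fold change -1.38 ± 0.53, adjusted p = 0.0733). P4ha1 and P4ha2, prolyl hydroxylases of collagen, fell by 0.54 and 1.07 (adjusted p = 0.0415 and 0.0181). Acta2, the smooth muscle actin of myofibroblasts, overlapped between days (log2 fold change -0.26 ± 0.39, adjusted p = 0.659), and Tgfb1 stood at 42.9, 39.2 and 40.6 CPM at day 14, against 37.8, 36 and 36.7 CPM at day 7, close to each other and without passing (log2 fold change 0.15 ± 0.33, adjusted p = 0.769).

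Fibroblast and signalling genes went both ways. Of 17 dermal fibroblast genes 3 rose: Crabp1, a retinoic acid-binding protein (2.91 ± 0.53), En1, a homeobox factor (1.66 ± 0.40), and Fbln1, a matrix glycoprotein (1.54 ± 0.39), with adjusted p of 0.00287, 0.0106 and 0.0142. Pdgfrb fell by 0.94 (adjusted p = 0.00502), and Dlk1, a Notch-like factor of young fibroblasts, fell by 1.79. In the TGF-beta list Bambi, a decoy receptor, stood at 43.1, 64 and 82.6 CPM at day 14, against 6.03, 5.49 and 7.68 CPM at day 7 and rose by 3.30 ± 0.49 (adjusted p = 0.000971), while Tgfbi, a matrix protein induced by TGF-beta, fell by 1.52 (adjusted p = 0.0107). Of 18 MMPs and TIMPs 4 fell and 1 rose. Mmp3, or stromelysin, stood at 4.34, 3.12 and 1.97 CPM at day 14, against 23.4, 19.8 and 27.2 CPM at day 7 and fell by 2.90 (adjusted p = 0.0159), and Mmp13, a collagenase, at 0.711, 0.468 and 0.345 CPM at day 14, against 1.94, 0.896 and 3.27 CPM at day 7 (log2 fold change -1.99 ± 0.54, adjusted p = 0.019).

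Vessel genes were lower at day 14. Of 20 endothelial genes 14 fell and none rose, with a median of -1.57. None passed without the 2 libraries, with a median of -1.56, and 6 passed without TMM scaling. Pecam1, the adhesion molecule of endothelial junctions, stood at 34, 32 and 27.7 CPM at day 14, against 100.4, 108 and 98.5 CPM at day 7. All day 14 libraries were below all day 7 libraries, and it fell by 1.71 (SE 0.45, adjusted p = 0.0166). Flt1, a receptor of VEGF, stood at 15.4, 12.4 and 10.9 CPM at day 14, against 45.9, 35.9 and 44.9 CPM at day 7 (log2 fold change -1.71 ± 0.31, adjusted p = 0.00288). Cldn5, a tight junction protein, stood at 12, 8.52 and 5.70 CPM at day 14, against 38.7, 42 and 39.3 CPM at day 7 (log2 fold change -2.19 ± 0.43, adjusted p = 0.004). Erg, a transcription factor of endothelium, and Ptprb, its receptor phosphatase, fell by 2.02 and 1.53 (adjusted p = 0.00431 and 0.00667). Pericyte and smooth muscle genes fell in 4 of 9 tested members. Rgs5 stood at 78, 66.1 and 56.4 CPM at day 14, against 227, 265.4 and 179 CPM at day 7 (log2 fold change -1.74 ± 0.33, adjusted p = 0.00319). Kcnj8, a potassium channel subunit, was at -2.03 (adjusted p = 0.00255). Notch3, Smtn and Cspg4 of that list were higher at day 14 without passing, at 0.73, 0.35 and 0.31. Vegfa did not pass (log2 fold change -0.66 ± 0.36, adjusted p = 0.204), Pgf fell by 2.08 (adjusted p = 0.0351), and Nrp2, a semaphorin and VEGF co-receptor, rose by 1.61 ± 0.36 (adjusted p = 0.0073).

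Nerve sheath genes fell in 6 of 14 tested members. Prx, or periaxin, of the myelin sheath, stood at 15.4, 12.3 and 10.9 CPM at day 14, against 59.5, 21.4 and 98.7 CPM at day 7 (log2 fold change -2.22 ± 0.74, adjusted p = 0.0445). Day 7 libraries differed widely among themselves, and all were above day 14. None of the list passed without the 2 libraries, and the median moved by 0.03 in size, to -1.28.

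Skeletal muscle genes took less of the RNA at day 14 than at day 7. Summed over the 26 listed genes, they stood at 35600, 26180 and 19790 CPM in the day 14 libraries, against 151600, 140600 and 159900 CPM at day 7. Of the 26, 16 fell and none rose, with a median log2 fold change of -2.42. None passed without the 2 libraries (median -2.38), and 4 to 22 passed when any 1 library was left out. Acta1, the skeletal actin, stood at 10350, 7168 and 4865 CPM at day 14, against 34660, 30850 and 37940 CPM at day 7. The groups did not overlap, and it fell by 2.21 (SE 0.73, adjusted p = 0.044). Actn3, the alpha-actinin of fast fibres, stood at 316, 301 and 311 CPM at day 14, against 5692, 4887 and 6279 CPM at day 7 (log2 fold change -4.18 ± 0.83, adjusted p = 0.00422). Pvalb, a calcium buffer of fast fibres, stood at 434, 429 and 409 CPM at day 14, against 5752, 5720 and 6782 CPM at day 7 (log2 fold change -3.84 ± 0.76, adjusted p = 0.00422).

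Several muscle genes were below 0.5 CPM at day 14. Myh7, the slow myosin heavy chain, stood at 0, 0.0624 and 0.276 CPM at day 14, against 112, 114 and 98.9 CPM at day 7 (log2 fold change -9.80 ± 1.83, adjusted p = 0.00318). Myh6, the heart-type myosin, stood at 0.237, 0.0936 and 0.138 CPM at day 14, against 79.8, 91.6 and 72.4 CPM at day 7 (log2 fold change -9.0 ± 1.32, adjusted p = 0.000878). Myl3, a slow light chain, stood at 0.0395, 0.156 and 0.311 CPM at day 14, against 60.4, 59.5 and 68.1 CPM at day 7 (log2 fold change -8.45 ± 1.48, adjusted p = 0.00245). In all 3 genes every day 14 library was below every day 7 library. Myl2 fell by 7.57 (adjusted p = 0.00399), Tnnc1, the slow troponin C, by 5.87 (adjusted p = 0.00176) and Tnnt1, the slow troponin T, by 4.35 (adjusted p = 0.00738). Of the fast myosins, Myh4 stood at 1694, 2321 and 3125 CPM at day 14, against 20370, 18130 and 21010 CPM at day 7 and fell by 3.06 (adjusted p = 0.0221), while Myh1 and Myh2 did not pass, at -1.53 and -0.99. Igfn1, a Z-disc protein, stood at 0.276, 0.312 and 0.173 CPM at day 14, against 369, 431 and 252 CPM at day 7 (log2 fold change -10.39 ± 2.14, adjusted p = 0.00523). Mss51, a mitochondrial protein of muscle, stood at 2.01, 2.18 and 2.07 CPM at day 14, against 132, 150.1 and 114 CPM at day 7 (log2 fold change -5.98 ± 1.36, adjusted p = 0.00865). Day 14 replicate 1 was the highest day 14 library in 23 of the 26 muscle genes, the reverse of its place in the hair genes.

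Genes of muscle regeneration fell in 9 of 14 tested members, none rising, with a median of -2.21 (none without the 2 libraries, median -2.02). Myf6, a late myogenic factor, stood at 19.3, 15.9 and 11.3 CPM at day 14, against 221, 182 and 269 CPM at day 7 (log2 fold change -3.86 ± 0.82, adjusted p = 0.006). Mymk, the fusion protein myomaker, stood at 0.434, 0.281 and 0.0345 CPM at day 14, against 3.73, 2.41 and 4.28 CPM at day 7 (log2 fold change -3.78 ± 0.82, adjusted p = 0.00677). Actc1, the actin of heart and of new fibres, stood at 6.36, 9.70 and 13.5 CPM at day 14, against 91.5, 63.3 and 135 CPM at day 7 (log2 fold change -3.29 ± 0.89, adjusted p = 0.0183). Myl4, an embryonic light chain, fell by 2.35 (adjusted p = 0.00274). Myh3, the embryonic myosin, did not pass (log2 fold change -1.52 ± 0.82, adjusted p = 0.193).

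**Figure D4:**
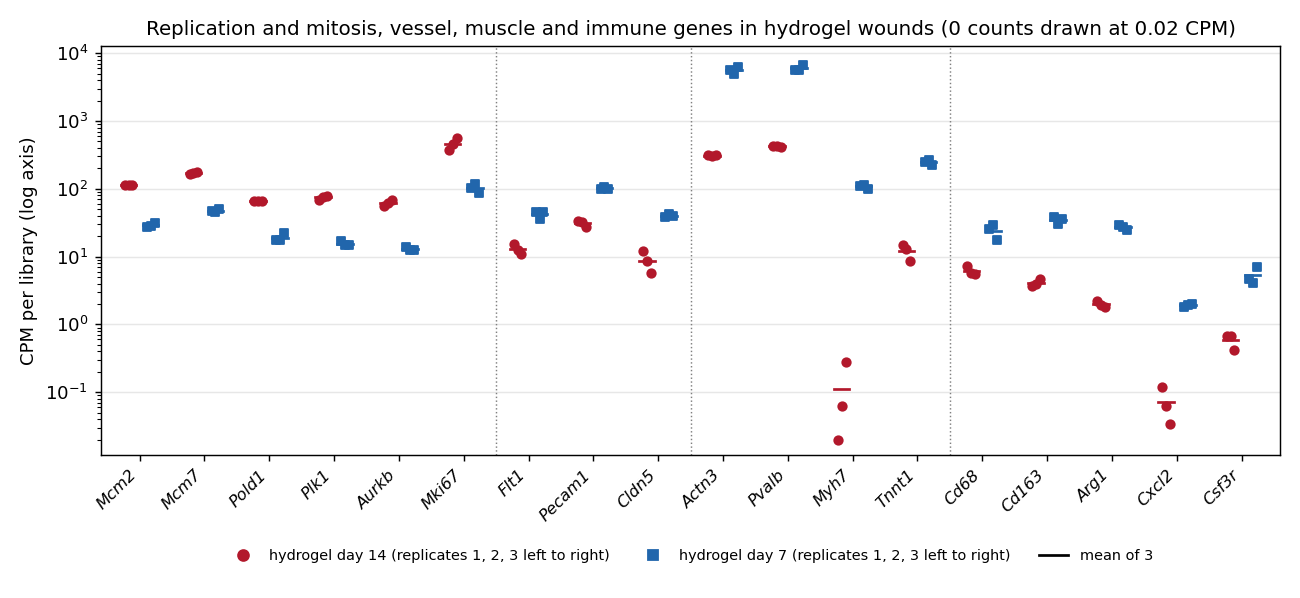
CPM per library (log axis) in hydrogel wounds at day 14 (red circles) and at day 7 (blue squares), with bars at the mean of 3, for 6 replication and mitosis genes, 3 vessel genes, 4 muscle genes and 5 immune genes, divided by dotted lines. Day 14 libraries lie above day 7 in the first block and below it in the other blocks, furthest for Myh7 at 0 to 0.276 CPM against 98.9 to 114 CPM.

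Macrophage genes were lower. Of 20 tested, 9 fell and none rose, with a median of -2.06 (none without the 2 libraries, median -2.04). Cd68, a lysosomal protein of macrophages, stood at 7.34, 5.68 and 5.46 CPM at day 14, against 25.7, 29.2 and 17.7 CPM at day 7. All day 14 libraries were below day 7, and it fell by 1.98 (SE 0.43, adjusted p = 0.00675). Cd163, the haemoglobin scavenger receptor, stood at 3.71, 3.96 and 4.73 CPM at day 14, against 38.3, 30.6 and 36.2 CPM at day 7 (log2 fold change -3.08 ± 0.81, adjusted p = 0.0161). Cd14, the co-receptor for lipopolysaccharide, fell by 2.19 (adjusted p = 0.0109) and Ms4a7 by 2.85 (adjusted p = 0.0157). Summed over the list, macrophage genes stood at 309 to 321 CPM at day 14, against 530.3 to 640 CPM at day 7. Much of the day 14 sum was Gpnmb, which was higher at day 14 without passing. Its mean was 176 CPM at day 14, against 79.01 CPM at day 7 (log2 fold change 1.15 ± 0.53, adjusted p = 0.127). Mertk was also higher without passing (log2 fold change 0.37 ± 0.32, adjusted p = 0.431). Arg1, the arginase of alternatively activated macrophages, stood at 2.25, 1.93 and 1.83 CPM at day 14, against 29.7, 27.1 and 25.1 CPM at day 7 (log2 fold change -3.76 ± 0.64, adjusted p = 0.00209), and 7 of 12 tested genes of that list fell (none without the 2 libraries, median -1.93), Il4ra, the receptor of interleukin 4, by 1.97 (adjusted p = 0.00793). Spp1, osteopontin, stood at 7.26, 5.90 and 5.28 CPM at day 14, against 103, 113 and 77.5 CPM at day 7. It fell by 3.99 (SE 0.56, adjusted p = 0.000761, and 0.0315 without the 2 libraries). Chil4, a chitinase-like protein, and Rnase2a, an eosinophil-type ribonuclease, fell by 5.23 and 5.09 (adjusted p = 0.00311 and 0.01).

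Chemokines fell in 12 of 23 tested members and rose in none, with a median of -2.30 (none without the 2 libraries, median -2.16). Cxcl2, which attracts neutrophils, stood at 0.118, 0.0624 and 0.0345 CPM at day 14, against 1.80, 1.96 and 2.0 CPM at day 7. Levels were low, and every day 14 library was below every day 7 library (log2 fold change -4.65 ± 0.85, adjusted p = 0.00288). Cxcl5, a relative, stood at 0.0395, 0.0936 and 0 CPM at day 14, against 2.87, 1.62 and 5.55 CPM at day 7 (log2 fold change -5.99 ± 1.36, adjusted p = 0.00852). Ccl20, which attracts CCR6 cells, stood at 0.632, 0.312 and 0.345 CPM at day 14, against 3.02, 3.75 and 3.94 CPM at day 7 (log2 fold change -3.05 ± 0.81, adjusted p = 0.0171). Cxcl16, a membrane-bound chemokine, stood at 19.1, 15.3 and 12.4 CPM at day 14, against 54, 59.1 and 55 CPM at day 7 (log2 fold change -1.84 ± 0.38, adjusted p = 0.00507). In none of these chemokines did the groups overlap. Cytokine genes passed in 4 of 16: Il1b stood at 1.07, 1.22 and 1.55 CPM at day 14, against 8.40, 3.30 and 14.8 CPM at day 7 (log2 fold change -2.78 ± 0.70, adjusted p = 0.0134), Nos2, the inducible nitric oxide synthase, fell by 2.04 (adjusted p = 0.00968), Il33 by 1.81 (adjusted p = 0.0415) and Il6 by 2.39 (adjusted p = 0.0384). Il6 was low, at a mean of 0.148 CPM at day 14, against 0.816 CPM at day 7. Its adjusted p was 0.139 without the 2 libraries.

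Neutrophil genes fell in 9 of 15 tested members, with a median of -3.04, the lowest of all lists (none without the 2 libraries, median -3.16). Csf3r, the receptor of the granulocyte growth factor G-CSF, stood at 0.671, 0.686 and 0.414 CPM at day 14, against 4.74, 4.03 and 7.15 CPM at day 7 (log2 fold change -3.15 ± 0.71, adjusted p = 0.00839). Clec4e, a receptor for glycolipids, stood at 0.197, 0.156 and 0.138 CPM at day 14, against 1.80, 1.34 and 1.87 CPM at day 7 (log2 fold change -3.30 ± 0.75, adjusted p = 0.00852). Fpr1, the formyl peptide receptor, had 1 count at day 14 and 0.718, 0.560 and 0.668 CPM at day 7, a ratio of day 7 over day 14 of 55.4 (95% counting interval 9.21 to 2260). Trem1 stood at 0.0395, 0.0936 and 0.0345 CPM at day 14, against 1.87, 0.112 and 1.74 CPM at day 7 (log2 fold change -4.26 ± 0.95, adjusted p = 0.00788), so that day 7 replicate 2 stood close to day 14. S100a8, an alarmin that keratinocytes also make, did not pass, at 54.6, 32.8 and 19.1 CPM at day 14, against 57.3, 61.2 and 63.4 CPM at day 7, with day 14 replicate 1 close to day 7 (log2 fold change -0.77 ± 0.72, adjusted p = 0.464). The 4 list members not tested had few counts: Ly6g had 0, Ngp 1, at day 7, Ltf 2, at day 14, and Camp 22 at day 14, against 6 at day 7. Summed over the list, neutrophil genes stood at 66.5 to 162 CPM at day 14, against 163 to 250.2 CPM at day 7.

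Most members of the other immune lists did not pass, and for some lists this depended on the setting. Among 21 T and NK cell genes Lck, a kinase of the T cell receptor, rose by 1.96 ± 0.44 (adjusted p = 0.00846), and Gzmb, a granzyme, and Cd4 fell by 3.57 and 1.27 (adjusted p = 0.0101 and 0.0398). Complement fell in 4 of 11, above the background of 9.6%, with a median of -1.85 (0 to 10 members under the alternative settings). C3 stood at 39.2, 33.4 and 30.5 CPM at day 14, against 217, 226 and 208 CPM at day 7 (log2 fold change -2.66 ± 0.89, adjusted p = 0.0457). Interferon response genes passed in 1 of 22, Ifih1, a sensor of viral RNA, which fell by 1.46, while the median of the list was -1.08. Under the alternative settings 0 to 20 of them fell. Class II antigen presentation genes fell in 1 of 18, with a median of -0.74 (0 to 13 under the alternative settings). Hmox1, which breaks down haem, stood at 17.1, 13.8 and 11.4 CPM at day 14, against 63.3, 44.8 and 74.4 CPM at day 7 (log2 fold change -2.11 ± 0.50, adjusted p = 0.0104), and 6 of 24 genes of peroxide defence fell and 1 rose, Slc7a11, the cystine importer (2.69 ± 0.67, adjusted p = 0.0129).

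Genes of energy metabolism were lower. Of 21 glycolysis and hypoxia genes 12 fell and none rose, with a median of -1.49 (none without the 2 libraries, median -1.46). Hk2, the hexokinase of muscle and growing cells, stood at 131, 104 and 76.9 CPM at day 14, against 530.4, 604 and 463 CPM at day 7. All day 14 libraries were below day 7 (log2 fold change -2.36 ± 0.44, adjusted p = 0.00334). Slc2a1, the glucose carrier GLUT1, stood at 39.8, 36.3 and 31.7 CPM at day 14, against 91.7, 107 and 83.1 CPM at day 7 (log2 fold change -1.39 ± 0.27, adjusted p = 0.00376). Ldha, lactate dehydrogenase, stood at 1274, 984 and 828 CPM at day 14, against 2866, 2684 and 3142 CPM at day 7 (log2 fold change -1.49 ± 0.27, adjusted p = 0.00273). In each of these enzymes the groups did not overlap. Tpi1 fell by 1.9 (adjusted p = 0.00308), and Pgm1, which moves glucose to and from glycogen, stood at 105.2, 85.5 and 70.5 CPM at day 14, against 588, 541 and 628 CPM at day 7 (log2 fold change -2.75 ± 0.37, adjusted p = 0.000575). Of 26 nuclear-encoded respiratory chain genes 16 fell, with a median of -0.71, 2 fell without TMM scaling and none passed without the 2 libraries. Skeletal muscle genes, which share these enzymes, fell in the same libraries (summed level 19790 to 35600 CPM at day 14, against 140600 to 159900 CPM at day 7), and their part in the metabolic genes was not tested. Day 14 replicate 1 was the highest day 14 library in all 26 respiratory chain genes and in 17 of 21 glycolysis genes, as in 23 of 26 muscle genes.

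Further genes named by adjusted p on the lower side were Ppp3ca, a catalytic subunit of calcineurin, at 95.3, 86.2 and 79.1 CPM at day 14, against 225, 269 and 208 CPM at day 7 (log2 fold change -1.43 ± 0.18, adjusted p = 0.000504). Slc37a4, the glucose 6-phosphate carrier of the endoplasmic reticulum, stood at 24.9, 23.8 and 19.3 CPM at day 14, against 121, 122 and 128 CPM at day 7 (log2 fold change -2.45 ± 0.33, adjusted p = 0.000575). Cdh13, Lifr, Stom, Ginm1 and Rasa4 fell by 1.55, 1.77, 1.49, 1.51 and 1.40 on the log2 scale, with adjusted p from 0.000507 to 0.000975. Igfbp3, the main carrier of IGF in blood, stood at 45.3, 34 and 26.6 CPM at day 14, against 457, 450.0 and 454 CPM at day 7 (log2 fold change -3.68 ± 0.55, adjusted p = 0.001). Its day 7 libraries were nearly equal. Ctsl, a lysosomal protease, stood at 134, 106 and 78.9 CPM at day 14, against 496, 571 and 427 CPM at day 7 (log2 fold change -2.23 ± 0.38, adjusted p = 0.00204). Ppargc1a, a coactivator of mitochondrial genes, stood at 8.13, 4.59 and 3.28 CPM at day 14, against 37.1, 51.5 and 25.1 CPM at day 7 (log2 fold change -2.83 ± 0.65, adjusted p = 0.00924), and Dio2, the enzyme that activates thyroid hormone, rose at 13.5, 8.77 and 6.60 CPM at day 14, against 2.51, 1.29 and 2.94 CPM at day 7 (log2 fold change 2.10 ± 0.37, adjusted p = 0.00235).

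Lipid genes were mixed. Of 24 sterol synthesis genes 5 rose and none fell, and none passed without the 2 libraries. Dhcr7, the last enzyme of cholesterol synthesis, stood at 62.9, 67.9 and 70.8 CPM at day 14, against 20.8, 21.3 and 21.9 CPM at day 7 (log2 fold change 1.66 ± 0.34, adjusted p = 0.00522), and Stard4, a sterol carrier, rose by 1.95 ± 0.32 (adjusted p = 0.00176). Hmgcs1, an early enzyme of the path, overlapped (log2 fold change -0.12 ± 0.47, adjusted p = 0.88). Among 20 adipocyte genes Lep, or leptin, rose (log2 fold change 2.15 ± 0.53, adjusted p = 0.012), and Slc2a4, the insulin-dependent glucose carrier that muscle shares, and Cd36, a fatty acid carrier, fell by 2.21 and 1.24 (adjusted p = 0.01 and 0.0198). Adipoq, or adiponectin, stood at 38.8, 31.7 and 27 CPM at day 14, against 27, 23.4 and 33.4 CPM at day 7 with overlapping groups (log2 fold change 0.22 ± 0.86, adjusted p = 0.875). Among 19 immediate early genes Fosb stood at 38.6, 37.4 and 33.7 CPM at day 14, against 1.94, 2.07 and 2.81 CPM at day 7 (log2 fold change 4.0 ± 0.67, adjusted p = 0.00185), Egr1 rose by 1.18 ± 0.20 (adjusted p = 0.00204), and Nr4a3, a nuclear receptor induced by activity, fell by 2.37 (adjusted p = 0.00242). Among 15 stress genes of the endoplasmic reticulum 3 rose and 3 fell, Sdf2l1, a chaperone partner, by 1.63 ± 0.20 on the higher side (adjusted p = 0.000365).

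Control wounds were set beside these changes to see which of them differed by arm. In control wounds 2146 genes passed between day 14 and day 7 (12.2%; 6.33% higher and 5.87% lower). The difference between the arms, tested as hydrogel change minus control change in the same model, passed for 302 genes (1.72%; 0.693% higher and 1.02% lower), and for 2 genes with the 2 libraries left out. The spread between replicates was 52.7% in control day 14 wounds, against 4.69% in control day 7 wounds, as the biological coefficient of variation, and 15% in hydrogel day 14, against 11.1% in hydrogel day 7 wounds. Of the 302 genes, 40 passed in opposite directions in the arms.

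Several programs that rose in hydrogel wounds rose in control wounds too. Of the hair follicle regulators 13 rose in hydrogel and 14 in control wounds, and the difference passed for none of the 20. Melanocyte genes rose in 8 and 9 of 12, DNA replication genes in 23 and 6 of 23 and mitosis genes in 23 and 9 of 26, in hydrogel and control wounds in that order, and the difference passed for none of these genes. Hair shaft and root sheath genes rose in 20 of 21 in hydrogel wounds and in 9 of 21 in control wounds, with medians of 8.72 and 2.96, and the difference passed for 2, Krt33b and Krt34. Each of these had 1 count in all at hydrogel day 7, so the size of its difference is a model value and not support for a difference between arms. Hydrogel day 14 replicate 1 was 32-fold and 19.3-fold below replicate 3 in Krt33b and Krt34. Vessel genes fell in 14 and 13 of 20, with medians of -1.57 and -1.80, and none differed. Passing in 1 arm alone does not show a difference between arms.

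Genes whose change differed between the arms included members of the adipocyte, keratinocyte and chemokine lists. Adipocyte genes had a median of -0.08 in hydrogel wounds (0.29 without TMM scaling) and -4.35 in control wounds, where 17 of 20 fell, and the difference passed for 7, all higher in hydrogel wounds. Lep stood at 1.54, 2.0 and 2.11 CPM at day 14, against 0.215, 0.616 and 0.401 CPM at day 7, in hydrogel wounds, and at 0.348, 0.814 and 0.412 CPM at day 14, against 27.7, 28.7 and 26 CPM at day 7, in control wounds. The difference in log2 change was 7.82 ± 0.75 (adjusted p = 0.000412). Krt14, given above for hydrogel wounds, stood at 152, 1613 and 2139 CPM at day 14, against 119.9, 116 and 114 CPM at day 7, in control wounds, where replicate 1 of day 14 stayed near day 7, a difference of -4.20 ± 0.85 (adjusted p = 0.0237). Chemokines had a median of -2.30 in hydrogel and -0.03 in control wounds, and the difference passed for 5 of 23, all lower. Cxcl5 rose in control wounds, to 1.68, 17.3 and 2.75 CPM at day 14, against 0.298, 0.203 and 0.628 CPM at day 7, while it fell in hydrogel wounds, a difference of -10.24 ± 1.78 (adjusted p = 0.0125).

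Single genes with a difference between arms included enzymes of gluconeogenesis and amino acid breakdown. Fbp1, fructose bisphosphatase, stood at 28.2, 41.6 and 50 CPM in hydrogel wounds at day 14, against 1.22, 1.23 and 0.935 CPM at day 7. In control wounds it stood at 5.92, 4.20 and 3.85 CPM at day 14, against 5.13, 4.81 and 5.03 CPM at day 7. It rose in hydrogel wounds by 5.13 ± 0.53 and did not pass in control wounds (-0.10 ± 0.44), and the difference was 5.24 ± 0.67 (adjusted p = 0.00275). Prodh, proline dehydrogenase, stood at 15.4, 15.8 and 15 CPM in hydrogel wounds at day 14, against 16.6, 17.9 and 19 CPM at day 7, and fell in control wounds, to 13.9, 14.2 and 12.3 CPM at day 14, against 58, 56.7 and 59.8 CPM at day 7 (difference 1.9 ± 0.24, adjusted p = 0.00275). Nmnat2, an enzyme of NAD synthesis in neurons, rose more in hydrogel wounds (5.59 ± 0.46) than in control wounds (1.55 ± 0.39), with a difference of 4.04 ± 0.58 (adjusted p = 0.00528). Fgd2 and Ctnnbip1, an inhibitor of beta-catenin, rose in hydrogel wounds by 2.15 and 1.55 and did not pass in control wounds (-0.80 and -0.42), with differences of 2.95 and 1.97 (adjusted p = 0.00299 and 0.00317).

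On the lower side, Igfbp3 fell in hydrogel wounds and rose in control wounds, to 1047, 295 and 120.0 CPM at day 14, against 108, 103 and 100 CPM at day 7, a difference of -5.91 ± 0.76 (adjusted p = 0.00275). Spp1 stood at 104.6, 178 and 110.1 CPM in control wounds at day 14, against 101, 96.9 and 97.1 CPM at day 7, where it did not pass, and the difference was -4.40 ± 0.73 (adjusted p = 0.0108). Nr4a3 and Mst1r, the receptor of macrophage-stimulating protein, fell in hydrogel and rose in control wounds, with differences of -4.31 and -2.37 (adjusted p = 0.00461 and 0.00464). Hk2 and Slc2a1 fell in hydrogel wounds and did not pass in control wounds, with differences of -3.07 and -2.09 (adjusted p = 0.0232 and 0.0141). Skeletal muscle genes had a median of -2.42 in hydrogel and 0.24 in control wounds, but the difference passed for none of the 26.

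**Figure D5:**
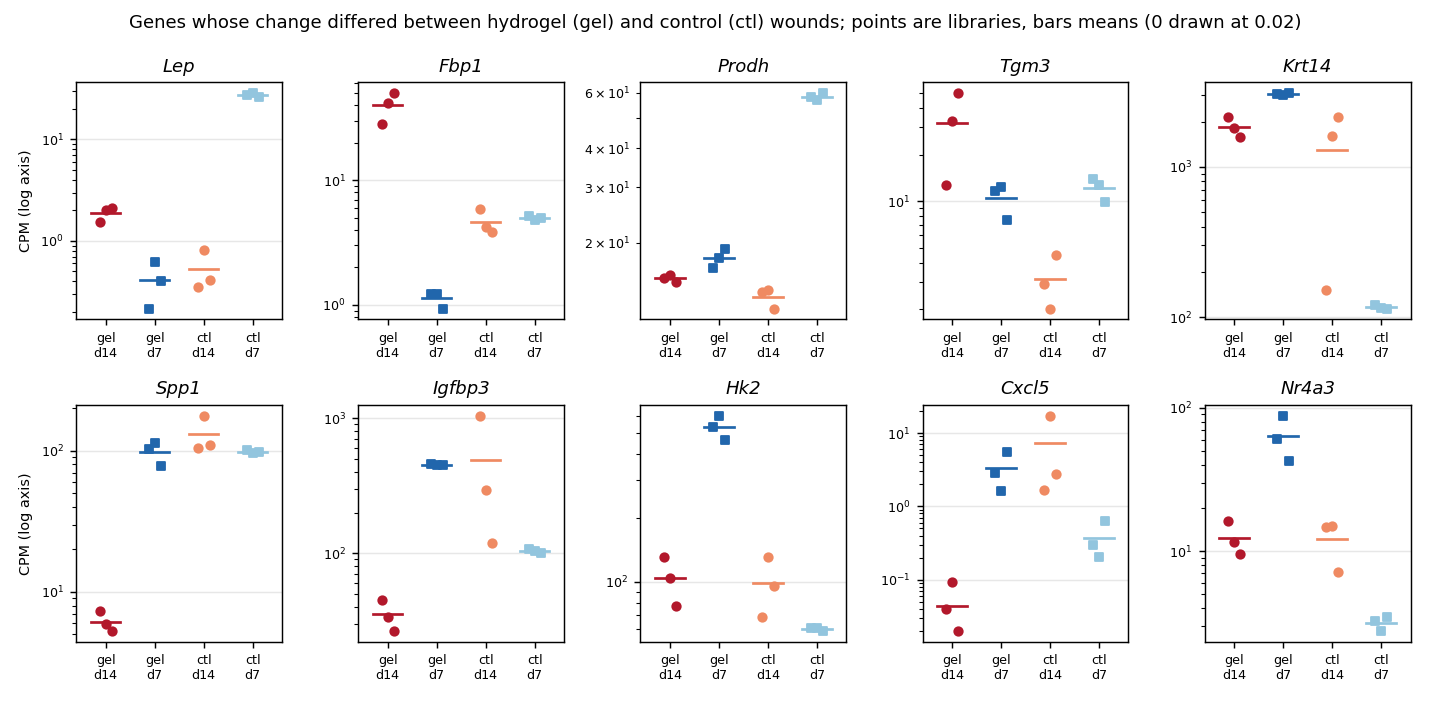
CPM per library (log axis, 1 panel a gene) in hydrogel wounds at day 14 and day 7 and in control wounds at day 14 and day 7, left to right, for 10 genes whose change differed between the arms; points are libraries and bars are means of 3. Lep and Prodh were high in control wounds at day 7 alone, Krt14 was low there and in control day 14 replicate 1, and Spp1 and Igfbp3 were lowest in hydrogel wounds at day 14.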

How the data were processed

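Total RNA of wound tissue was sequenced as an mRNA library. Per the file headers, the authors deposited counts of read pairs per gene symbol over exons from featureCounts 2.0.6, without strand, on GENCODE vM25 of GRCm38.p6; per the submitters' processing notes, Trim Galore 0.6.10, FastQC 0.11.9, HISAT2 2.2.1 and SAMtools 1.9 were also used. Without strand, genes that overlap on opposite strands cannot be told apart. From the counts of 52976 symbols, 17592 passed filterByExpr (minimum count 10, minimum total 15). edgeR 4.0.16 (R 4.3.3) with TMM factors fitted the 18 wound libraries by arm and day, with 12 residual degrees of freedom; quasi-likelihood F tests compared hydrogel day 14 with day 7, the same days in control wounds, and the difference of both. The RAW264.7 cell libraries were not used. Alternatives were DESeq2 1.42.0, limma 3.58.1 voom, other filters and scaling, fewer libraries, the replicate block and each library left out; no TMM scaling, CT010467.1 left out and both in-between libraries left out were chosen after seeing the data. Named genes were up to 10 per direction by size (mean of at least 5 CPM) and by adjusted p (at least 50 CPM, 2-fold), up to 4 members of each list with at least 2 past the test, 10 by the difference between arms, and a panel; other list members are examples chosen after their values were seen. The comparison and the 51 lists were chosen with earlier results of these data known. Depth was 14.3 M to 24.7 M counts per library; intervals and floors (3 counts over a group) cover counting error only, at 95% confidence. Some items are not reported here.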

Additional observations from a re-analysis of the deposited data

Results flagged for a closer look

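The change between day 14 and day 7 differed between hydrogel and control wounds for 37 of 199 named genes (edgeR's quasi-likelihood F test of the difference, Benjamini-Hochberg adjusted p below 0.05 over all genes tested), 16 with the higher change in hydrogel wounds and 21 with the lower. Values are hydrogel log2 change minus control log2 change. Among genes of fat, lipid and amino acid metabolism it was 7.82 for Lep, 1.9 for Prodh, 5.24 for Fbp1, 2.22 for Fads2 and 1.5 for Sc5d. Among genes of the hair shaft and cornified layers it was 12.08 for Gprc5d, 6.21 for Vsig8 and 3.56 for Tgm3. The size for Gprc5d (SE 2.28) is a model value and not a measured one, since the gene had no counts in hydrogel wounds at day 7. Among the other genes with a higher change it was 6.55 for Crtac1, 2.95 for Fgd2, 1.97 for Ctnnbip1, 4.04 for Nmnat2, 2.30 for Lrrc15, 1.68 for Ammecr1, 1.66 for Ttyh3 and 1.07 for Cbx3. Among genes of immune cells it was -10.24 for Cxcl5, -6.64 for Ccl20, -5.13 for Cxcl2, -2.25 for Cxcl16, -4.42 for Il6, -5.60 for Trem1, -4.67 for Clec4e, -3.76 for Arg1 and -4.40 for Spp1. The value for Il6 rests on low levels in hydrogel wounds, a mean of 0.148 CPM at day 14, against 0.816 CPM at day 7. Among growth factor, glucose and lysosome genes it was -5.91 for Igfbp3, -4.31 for Nr4a3, -2.37 for Mst1r, -1.89 for Socs2, -3.07 for Hk2, -2.09 for Slc2a1, -2.09 for Slc37a4 and -2.17 for Ctsl. Among the remaining genes it was -1.37 for Ppp3ca, -4.03 for Mmp13, -4.20 for Krt14 and -4.49 for Myf6.

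Control day 14 libraries varied more than those of the other 3 groups compared, and in several of these genes 1 control library set much of the mean: Cxcl5 stood at 1.68, 17.3 and 2.75 CPM in control wounds at day 14, against 0.298, 0.203 and 0.628 CPM at day 7, and Igfbp3 at 1047, 295 and 120.0 CPM at day 14, against 108, 103 and 100 CPM at day 7. The part of single libraries in these differences was measured only by leaving each out in turn, which left 60 to 1811 genes with a difference.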

How the results depend on the processing

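Every count of genes depends on how the spread is estimated and on which libraries enter. Genes called between hydrogel day 14 and day 7 numbered 3703 with RLE size factors, 3394 with a stricter filter, 3730 without CT010467.1, 5029 with DESeq2 and 2776 with no filter on low counts (1043 of them lower). With limma-voom and quality weights 13128 passed (6611 higher, 6517 lower), with only the 9 hydrogel wound libraries 6028 (3102 higher, 2926 lower) and with only the 6 compared libraries 10697 (5421 higher, 5276 lower). At least a 2-fold change left 1364 higher, and without TMM scaling 3992 were higher and 880 lower. With both libraries that lie between the others left out 236 passed (168 higher, 68 lower), and with the day 7 libraries summed, where the lone library is assumed to vary like the other groups, 0 passed in either direction. For the difference between arms, against 302 genes (122 higher, 180 lower), DESeq2 called 1453 (522 higher, 931 lower), limma-voom 6784 (3417 higher, 3367 lower), the 12 libraries of days 7 and 14 alone 3040 (1251 higher, 1789 lower) and counts without TMM scaling 147 (76 higher, 71 lower), 2 passed without both libraries (1 higher, 1 lower), and 0 with day 7 summed (746 at an unadjusted p below 0.05 in edgeR). Leaving out 1 library in turn gave 1298 (without hydrogel day 14 replicate 3) to 5407 genes (without control day 1 replicate 1), 885 to 2839 higher and 413 to 2640 lower, and for the difference 60 (without control day 7 replicate 2) to 1811 genes (without control day 1 replicate 1), 28 to 705 higher and 32 to 1106 lower. Without hydrogel day 14 replicate 2 1594 passed, and without day 7 replicates 1, 2 and 3 1752, 1823 and 1915. Of 183 named genes that passed, none passed under every alternative, 45 did under all but the summed day 7 libraries, and 46 did without both libraries. Fbln1 reversed in the difference between arms under limma-voom, at 0.67 (adjusted p = 0.0135), against -0.01; the cause of these changes was not tested. Same-numbered samples of hydrogel day 14 and day 7 did not deviate together (correlations -0.00598, -0.0217 and -0.0386). With 3 libraries a group, some lying between the others, this cannot tell whether the numbers pair samples. The share of CT010467.1 was highest in replicate 1 of hydrogel day 7 (4.06%), control day 7 (3.06%), control day 14 and both day 1 groups. At hydrogel day 14 it was highest in replicate 2 (0.233%). With the replicate block 3927 genes passed, and 232 for the difference. Without TMM scaling the medians of the basal keratinocyte, dermal fibroblast, adipocyte, mast cell, collagen processing, proteoglycan, T and NK cell and stress lists changed sign. Counts of 0 and low counts limit the hair genes at day 7 and several neutrophil genes at day 14, where a fold is a bound or uncertain.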

Other observations

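The gene families given here were grouped by symbol and picked for their counts after the values were seen, so they are examples given without a test. Of 50 keratin-associated protein (Krtap) genes only 6 were tested, and these could pass the filter through day 14 alone. Dlx homeobox genes and their antisense gene rose in 5 of 6 tested members, with a median log2 fold change of 5.46, Mcm genes, most of them of the replicative helicase, in 8 of 10 (1.81), Srsf splicing factors in 7 of 10 (0.98) and Nup nucleoporins in 12 of 20 (0.93). Cxcl chemokines fell in 7 of 11 (-1.84), Gbp guanylate-binding proteins in 5 of 11 (-1.69), H2-Q class I genes in 5 of 7 (-1.10) and Ndufb subunits of complex I in 9 of 11 (-0.84). Among 46 Krt keratins 22 rose and 1 fell. The share over all genes was 11.7% higher and 9.6% lower.

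Odf3l2, named by size, stood in hydrogel wounds at 0.0395, 0.343 and 0.518 CPM at day 14, against 21.2, 24.7 and 20.8 CPM at day 7 (log2 fold change -6.15 ± 1.27, adjusted p = 0.00534). Crtac1, a matrix protein of cartilage, stood at 0.355, 0.406 and 0.380 CPM in hydrogel wounds at day 14, against 0.0718, 0.0560 and 0.267 CPM at day 7, and at 0.174, 0.30 and 0.183 CPM in control wounds at day 14, against 7.88, 6.98 and 7.75 CPM at day 7. Fbn2, a fibrillin of growing tissue, stood at 14.1, 9.92 and 7.18 CPM at day 14, against 1.01, 0.672 and 0.869 CPM at day 7 (log2 fold change 3.61 ± 0.50, adjusted p = 0.000727).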
